A study of Mus musculus with 2 samples.

Results

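Vertebrate genomes hold paralogous microRNA (miRNA) clusters in which a gene of the miR-99/100 family, a gene of the let-7 family and a gene of the miR-125 family follow each other on the same strand. The mouse annotation GENCODE M21 has 3 of them, and their 9 genes, 9 of the 2202 miRNA genes counted, were taken by gene symbol. Mir99a, Mirlet7c-1 and Mir125b-2 lie on chromosome 16 and are called here the Mir99a cluster. Mir100, Mirlet7a-2 and Mir125b-1 lie on chromosome 9 (Mir100 cluster). Mir99b, Mirlet7e and Mir125a lie on chromosome 17 (Mir99b cluster). The rule used symbols and no measured values, but the genes were chosen with earlier results of these data known. They were measured by miRNA sequencing of short RNA in 2 libraries of adult hippocampus (a layer of it in the tissue label, not named) from wild-type C57BL/6, strain B6NCrl, at 6 months. No treatment or mutation is named, and the libraries form 1 group, numbered by the labels as biological replicates 1 and 2. The labels describe the mouse as male in 1 field and give sex as not collected in another. The donor identifier is the same for the 2 libraries. Separate animals are not stated, and their spread may therefore be technical.

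A miRNA is cut from a hairpin precursor, and the mature strand, from the 5′ arm (5p) or the 3′ arm (3p), guides the silencing complex to messenger RNAs that pair with its seed, bases 2 to 8. let-7 was found in the worm Caenorhabditis elegans as a regulator of developmental timing, and in vertebrates it rises as cells leave the progenitor state. miR-125 is the vertebrate relative of the worm miRNA lin-4, another timing regulator. miR-99 and miR-100 are related to miR-10, and the growth kinase mTOR is a reported target in mammalian cells. In the fly Drosophila melanogaster, miR-100, let-7 and miR-125 come from a shared primary transcript. Primary transcripts of the mouse clusters were not examined here.

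Sequences are those of RefSeq (GRCm38.p6), which had a mature arm for 9 of the 9 genes and a hairpin for 7 of them. The 5p arms are shown first because they carry the seeds that define the 3 families. The seed is in capitals.
miR-99a-5p: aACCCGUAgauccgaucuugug
miR-100-5p: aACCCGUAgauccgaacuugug
miR-99b-5p: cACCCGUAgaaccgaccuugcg
let-7c-5p: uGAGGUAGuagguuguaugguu
let-7e-5p: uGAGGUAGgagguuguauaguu
miR-125b-5p: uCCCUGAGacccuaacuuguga
miR-125a-5p: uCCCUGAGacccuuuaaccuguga
The miR-99/100 arms share the seed ACCCGUA, the let-7 arms GAGGUAG and the miR-125 arms CCCUGAG. Of the 1738 entries of mature arms, 3 had the first seed, all from these clusters, while 13 had the second and 6 the third. Arms such as let-7c-5p and miR-125b-5p have an entry for each of their genes, so entries are not distinct arms. The 5p arm of Mirlet7a-2 has no entry and is not among the 13. Positions are counted from 1 at the 5′ end. miR-100-5p differed from miR-99a-5p by U16A alone. miR-99b-5p differed from miR-99a-5p at 4 of 22 bases, A1C, U11A, U16C and U21C, all outside the seed. let-7e-5p differed from let-7c-5p by U9G and G19A. miR-125a-5p has 24 bases and miR-125b-5p 22, and they share their first 13 and last 5 bases.

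The copies of each arm matter because the tables hold reads that were placed once. Reads placed at more than 1 position stand in a row of their own, which held 43.8% of the reads of replicate 1 and 45.7% of those of replicate 2. Among the 2202 annotated hairpins, miR-125b-5p was found in both Mir125b-1 and Mir125b-2, and let-7c-5p in Mirlet7c-1 and in Mirlet7c-2 on chromosome 15. let-7a-5p, taken from the entry of Mirlet7a-1 on chromosome 13, was found in Mirlet7a-1 and Mirlet7a-2.
let-7a-5p: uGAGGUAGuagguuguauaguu
The hairpins with let-7c-5p share 1 further base after the arm, those with let-7a-5p share 1, and those with miR-125b-5p share 0. The 3p arms of these 4 genes each stood in 1 annotated hairpin, and they are shown because a read of a 3p arm can be placed at its own gene. Bases 2 to 8 are in capitals.
let-7c-1-3p: cUGUACAAccuucuagcuuucc
let-7a-2-3p: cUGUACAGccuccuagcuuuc
miR-125b-1-3p: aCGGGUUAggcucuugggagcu
miR-125b-2-3p: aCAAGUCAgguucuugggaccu
The 5p arms of Mir99a, Mir100, Mir99b, Mirlet7e and Mir125a each stood in 1 annotated hairpin, which was their own. Sequence outside the annotated hairpins was not searched. For Mirlet7c-1, Mirlet7a-2, Mir125b-1 and Mir125b-2, the counts leave out any read placed at more than 1 of these hairpins, and their levels are not comparable with those of the other 5 genes. The counts are per hairpin, so the arms cannot be told apart in them.

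The libraries held 4247092 and 5041568 reads counted on miRNA genes in replicates 1 and 2, out of 11106392 and 12627039 reads. Levels are in CPM, counts scaled to 1000000 reads on miRNA genes and taken from the gene's own strand, as mean ± SD over n = 2 libraries. The lowest member count was 1072 in replicate 1 and 980 in replicate 2, and a count of 0 would allow up to 3 counts, or 0.706 and 0.595 CPM. Reads are not independent molecules, so all intervals and these limits cover counting error only. Each of the 9 genes reached 10 CPM in replicate 1 and in replicate 2, as 13.7% of all miRNA genes did, and each reached 100 CPM in both, as 8.49% did. Together they took 7.85% of counts in replicate 1, with an exact 95% interval of 7.83 to 7.88%. In replicate 2 they took 9.57% (9.54 to 9.59%), for a mean of 8.71% ± 1.21 (SD, n = 2).

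Among the counted reads, most of that share lay in the Mir99b cluster. Its sum was 49780.4 CPM in replicate 1, against 78233 CPM in replicate 2, or 64007 ± 20119 CPM (SD, n = 2). The Mir99a cluster summed to 19805 and 11522 CPM (15664 ± 5857), and the Mir100 cluster to 8935 and 5902 CPM (7418 ± 2144). The order of these sums was the same in both libraries and their ranges did not overlap. In the Mir99a and Mir100 clusters the sums lack the reads of 2 of the 3 genes that were placed more than once, so the order is one of counted reads and not of the clusters' whole output. By family, the 3 miR-99/100 genes summed to 29176 and 25999.8 CPM in replicates 1 and 2, the 3 let-7 genes to 27733 and 35425 CPM, and the 3 miR-125 genes to 21611 and 34233 CPM. The let-7 and miR-125 sums likewise lack the reads of 2 of their 3 genes that were placed more than once.

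The miR-99/100 genes are described first. Mir99a (ENSMUSG00000065530.1, mm10 chromosome 16, 77598936 to 77599000) lies in an intron of the noncoding host gene Mir99ahg, and in an intron of Gm11146 on the opposite strand. Its level was 17848 CPM in replicate 1, against 10027 CPM in replicate 2 (13937 ± 5529.6, SD, n = 2), ranks 12 and 21 of the 2202 genes. Mir100 (ENSMUSG00000093011.1, chromosome 9, 41531425 to 41531504) lies in introns of the noncoding genes 3110039I08Rik and Gm49317, and an exon of Gm48742 covers it on the opposite strand. Mir100 had 7958 CPM in replicate 1, against 4669 CPM in replicate 2 (6314 ± 2326, SD, n = 2). Mir99b (ENSMUSG00000065396.1, chromosome 17, 17830188 to 17830257) lies in an intron of the protein-coding gene Spaca6, which has a role in sperm and egg fusion. Mir99b had 3370.3 CPM in replicate 1, against 11303 CPM in replicate 2 (7337 ± 5609, SD, n = 2). Mir99a and Mir100 were both higher in replicate 1 and Mir99b was higher in replicate 2.

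Among the let-7 genes of the clusters, Mirlet7e was the one whose 5p arm stood in 1 annotated hairpin. Mirlet7e (ENSMUSG00000105758.1, chromosome 17, 17830352 to 17830444), also in an intron of Spaca6, had 26924 CPM in replicate 1, against 34627 CPM in replicate 2 (30775 ± 5446, SD, n = 2). Mirlet7c-1 (ENSMUSG00000065557.3, chromosome 16, 77599657 to 77599750), in introns of the same 2 genes as Mir99a, had 556 CPM in replicate 1, against 604 CPM in replicate 2 (579.96 ± 33.7). Mirlet7a-2 (ENSMUSG00000092770.1, chromosome 9, 41536716 to 41536811), in introns of 3110039I08Rik and Gm49317, had 252 CPM in replicate 1, against 194 CPM in replicate 2 (223 ± 41.0). Within the clustered let-7 genes, Mirlet7e made up 97.1% of the counts in replicate 1 and 97.7% in replicate 2. The low counts of Mirlet7c-1 and Mirlet7a-2 stand beside the copies of their 5p arms given above, and how much of their reads was placed more than once was not tested.

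Mirlet7e depends on the strand of the counts. The miRNA gene Gm25927 is annotated over all 93 bases of its hairpin on the opposite strand, and the column without regard to strand gave Mirlet7e 0 counts in both libraries. On its own strand it had 114350 counts in replicate 1 and 174572 in replicate 2. These equal the opposite-strand counts of Gm25927, which had 0 sense counts in both libraries. The other 8 genes had the same counts in both columns, and all 9 had 0 counts on the opposite strand.

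Among their miR-125 genes, Mir125a was likewise the one whose 5p arm stood in 1 annotated hairpin, and its level is not set against those of Mir125b-1 and Mir125b-2. Mir125a (ENSMUSG00000065479.2, chromosome 17, 17830812 to 17830879) lies in Spaca6, with 47 of its 68 bases over an annotated exon. Mir125a had 19486 CPM in replicate 1, against 32303 CPM in replicate 2 (25895 ± 9063, SD, n = 2), ranks 11 and 8 of 2202. Mir125b-2 (ENSMUSG00000065472.1, chromosome 16, 77646273 to 77646343), in an intron of Mir99ahg with 4 of its bases over an exon of C130023A14Rik, had 1401 CPM in replicate 1, against 891 CPM in replicate 2 (1146 ± 361). Mir125b-1 (ENSMUSG00000093354.1, chromosome 9, 41581926 to 41582002) lies in introns of 3110039I08Rik and Gm49317 and over an exon of the sense intronic gene Gm28119. Mir125b-1 had 724 CPM in replicate 1, against 1038 CPM in replicate 2 (881 ± 222). Mir125b-2 was ahead of Mir125b-1 in replicate 1, by 1.94 times, and behind it in replicate 2, at 0.858 times. Since both hold the whole miR-125b-5p arm, neither value measures the level of that arm.

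**Figure D1:**
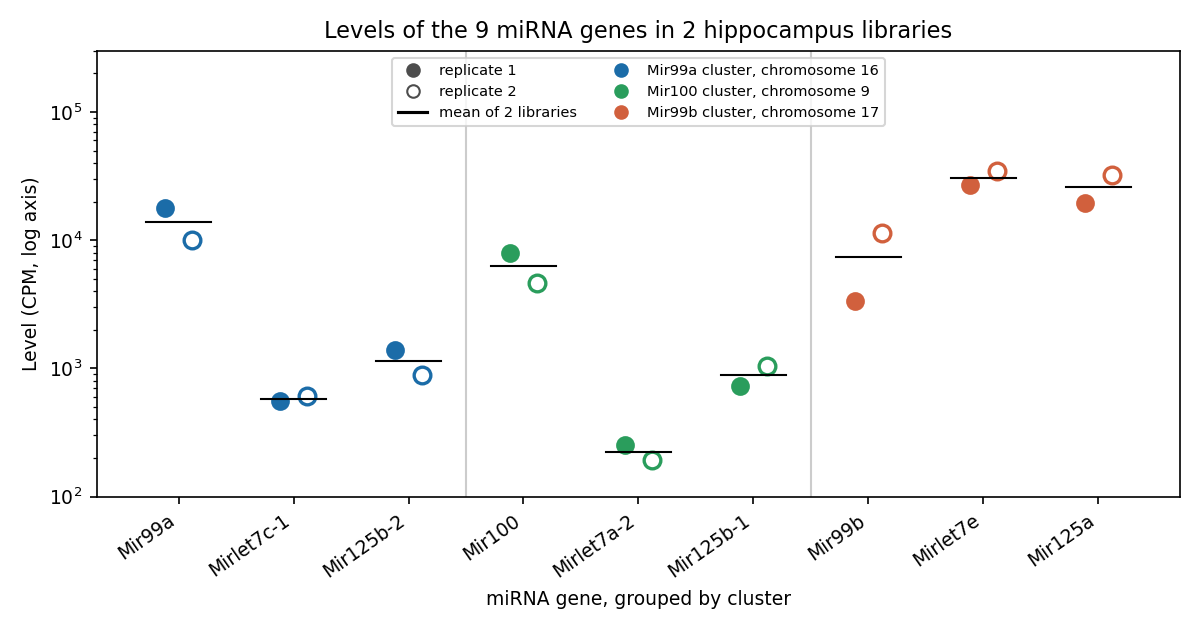
Level of each of the 9 genes in CPM on a log axis, with replicate 1 as filled and replicate 2 as open points and the mean of the 2 libraries as a bar. Mir99a and Mir100 are higher in replicate 1 and Mir99b, Mirlet7e and Mir125a lower. The counts of Mirlet7c-1, Mirlet7a-2, Mir125b-1 and Mir125b-2 lack reads placed more than once.

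The 5 genes whose 5p arms stood in 1 annotated hairpin ran, by mean CPM, Mirlet7e, Mir125a, Mir99a, Mir99b and Mir100. The ranges over the 2 libraries overlapped between Mirlet7e and Mir125a, between Mir99a and Mir99b, and between Mir99b and Mir100. Compared within each library, Mirlet7e was 1.38 times Mir125a in replicate 1 and 1.07 times in replicate 2. The order of Mir99a and Mir99b, and that of Mir99b and Mir100, was reversed between the libraries. The ranges of Mir125a and Mir99a did not overlap. The counted reads of the other 4 genes ran Mir125b-2, Mir125b-1, Mirlet7c-1 and Mirlet7a-2, with overlapping ranges between Mir125b-2 and Mir125b-1. Since an unknown part of the reads of these 4 was placed more than once, their order describes the counts and is not set against that of the 5. With 2 libraries, no test of these differences was made. A mature miRNA read covers its arm whatever the hairpin length, which was 65 to 96 bases here. With counts divided by hairpin length, Mir125a stood ahead of Mirlet7e on the mean and in replicate 2 but not in replicate 1, and both orders were otherwise the same.

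Spacing differed between the clusters. On chromosome 17 the starts of Mirlet7e and Mir125a lie 164 and 624 bases after the start of Mir99b, and gaps of 94 and 367 bases separate the hairpins. On chromosome 16 the start of Mirlet7c-1 lies 721 bases after that of Mir99a, and Mir125b-2 follows at 47337 bases. On chromosome 9 the start of Mirlet7a-2 lies 5291 bases after that of Mir100, and Mir125b-1 follows at 50501 bases. All 9 hairpins are on the plus strand.

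**Figure D2:**
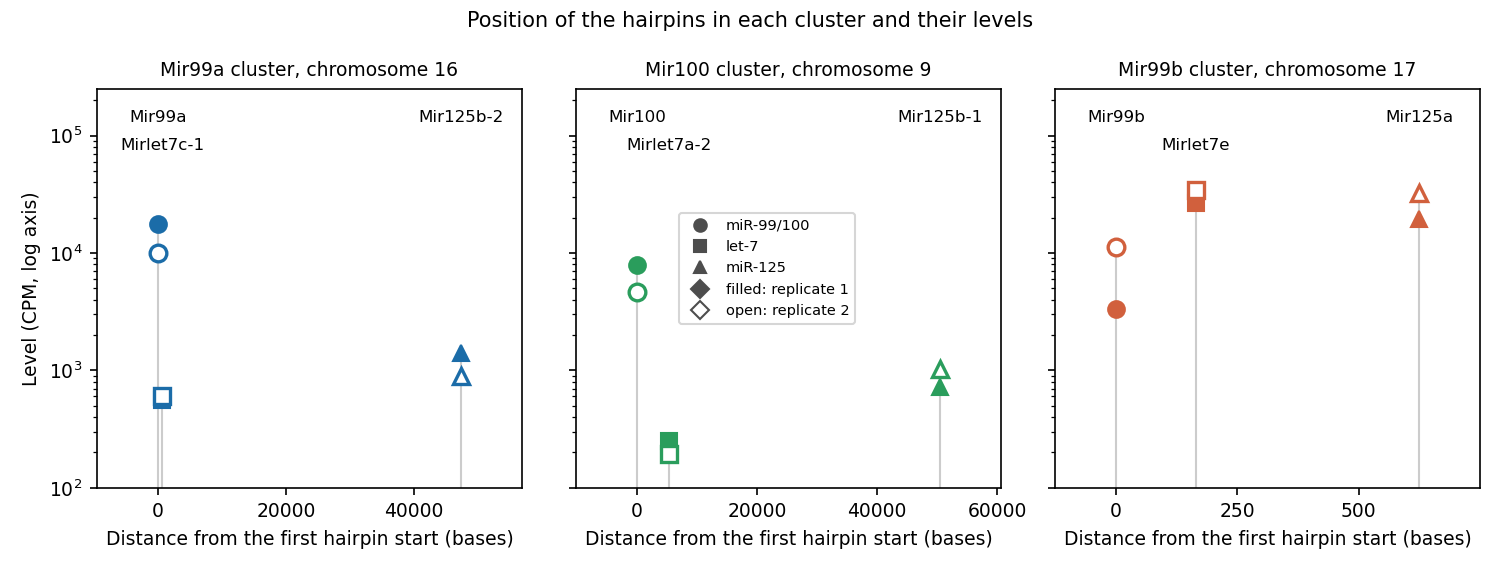
Distance of each hairpin start from the first hairpin of its cluster in bases (a separate scale for each cluster) against its level in CPM on a log axis, with filled symbols for replicate 1 and open symbols for replicate 2. The chromosome 17 hairpin starts lie within 624 bases, and the miR-125 genes of the other clusters start 47337 and 50501 bases after the start of the first hairpin.

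Shares within a cluster do not depend on the library total. In the Mir99a cluster, Mir99a made up 90.1% of the counts in replicate 1, with an exact 95% interval of 89.9 to 90.3%, against 87.0% in replicate 2 (86.7 to 87.3%). In the Mir100 cluster, Mir100 made up 89.1% in replicate 1 (88.8 to 89.4%) and 79.1% in replicate 2 (78.6 to 79.6%), and Mir125b-1 8.10% and 17.6%. The miR-99/100 gene led both clusters whose let-7 and miR-125 5p arms have copies elsewhere. In the Mir99b cluster, where each arm stood in 1 annotated hairpin, Mirlet7e made up 54.1% in replicate 1 (53.9 to 54.3%) and 44.3% in replicate 2 (44.1 to 44.4%), Mir125a 39.1% and 41.3%, and Mir99b 6.77% and 14.4%. Mir99b was the lowest of its cluster in both libraries. The shares of Mir99a and Mir100 in their clusters are of counted reads and are not set against that of Mir99b.

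**Figure D3:**
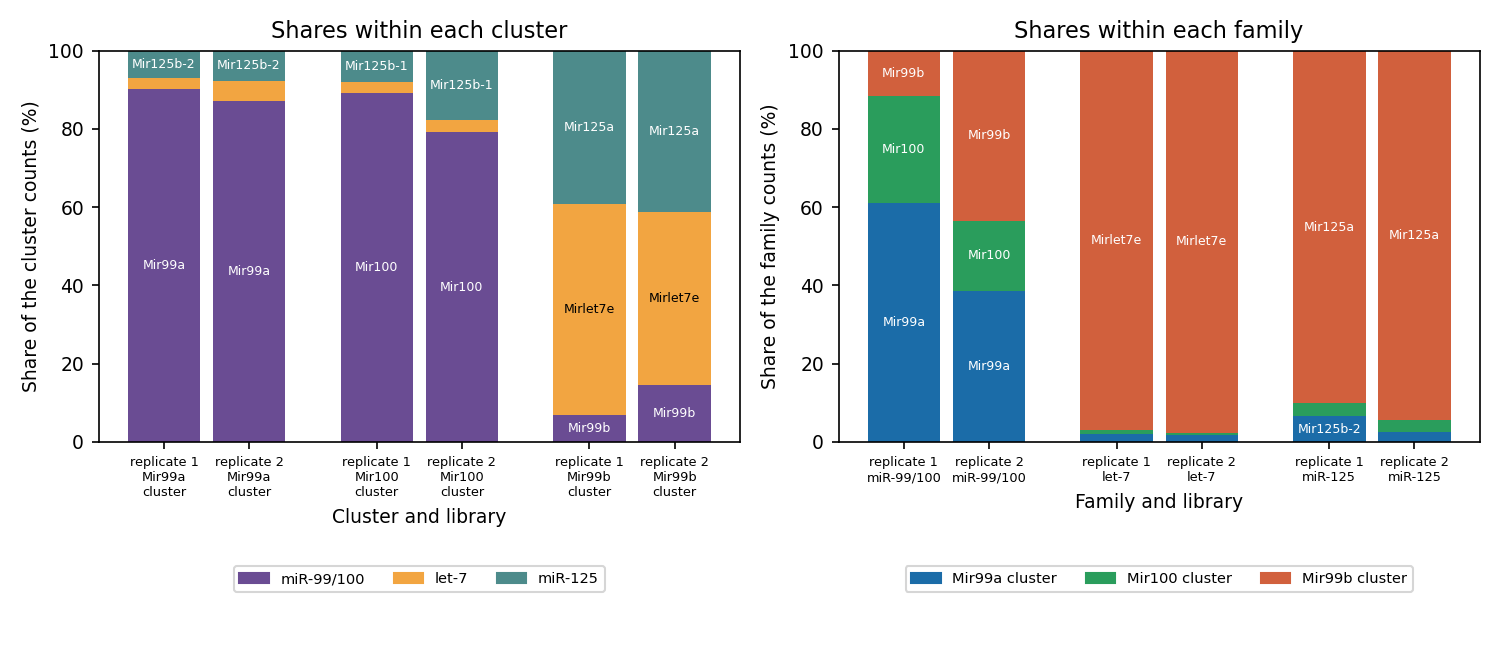
Share of the counts in percent taken by each gene within its cluster (left) and within its family over the 3 clusters (right), with a bar for each library. Mir99b takes 11.6% of the miR-99/100 family in replicate 1 and 43.5% in replicate 2, while the share of Mirlet7e in the let-7 genes stays at 97.1 and 97.7%. Shares are of counted reads, and the counts of Mirlet7c-1, Mirlet7a-2, Mir125b-1 and Mir125b-2 lack reads placed more than once.

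Within the miR-99/100 family, Mir99a and Mir100 kept nearly the same ratio in both libraries, and Mir99b did not. The ratio of Mir99a to Mir100, whose 5p arms differ by U16A alone, was 2.24 in replicate 1 and 2.15 in replicate 2. The ratio of Mir99a to Mir99b was 5.30 in replicate 1 and 0.887 in replicate 2, so the order of these genes was reversed. Mir99a made up 61.2% of the family in replicate 1 and 38.6% in replicate 2, Mir100 27.3 and 18.0%, and Mir99b 11.6 and 43.5%. The sum of the family was 1.12 times as high in replicate 1 as in replicate 2. On chromosome 17 the ratio of Mirlet7e to Mir125a was 1.38 in replicate 1 and 1.07 in replicate 2.

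As log2 ratios of CPM (replicate 1 over replicate 2, 0.5 counts added), Mir99b stood at -1.75 (exact 95% interval -1.77 to -1.72), Mir125a at -0.73 (-0.74 to -0.72) and Mirlet7e at -0.36 (-0.37 to -0.35). Mir99a stood at 0.83 (0.82 to 0.85), Mir100 at 0.77 (0.75 to 0.79) and Mir125b-2 at 0.65 (0.60 to 0.71). Mirlet7a-2 was at 0.38 (0.25 to 0.50), Mirlet7c-1 at -0.12 (-0.20 to -0.04) and Mir125b-1 at -0.52 (-0.58 to -0.46). All 3 genes of the Mir99b cluster were lower in replicate 1. In the other clusters, Mir99a, Mir100, Mir125b-2 and Mirlet7a-2 were higher, while Mirlet7c-1 and Mir125b-1 were lower. The counts of Mir125b-2, Mirlet7a-2, Mirlet7c-1 and Mir125b-1 lack reads placed more than once. Their directions are those of counted reads and are not set against those of the Mir99b cluster.

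Counted as over 1.5-fold apart, 5 of the 9 genes differed between the libraries, beside 39.5% of the 522 genes with 10 counts or more over both libraries. By direction these were 3 higher in replicate 1, beside 15.5% of those genes, and 2 lower, beside 23.9%. Among the 187 genes at 100 CPM or more in both libraries, a background chosen after the data were seen because low counts widen ratios, 28.3% were over 1.5-fold apart. Over 2-fold, the count was 1 of 9, Mir99b, beside 16.1% and 7.49% in the same backgrounds. The median absolute log2 ratio was 0.65 over the 9 genes, 0.46 over the 522 and 0.35 over the 187. These are differences between 2 libraries of 1 group with no replicate check, so no p-value was computed.

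**Figure D4:**
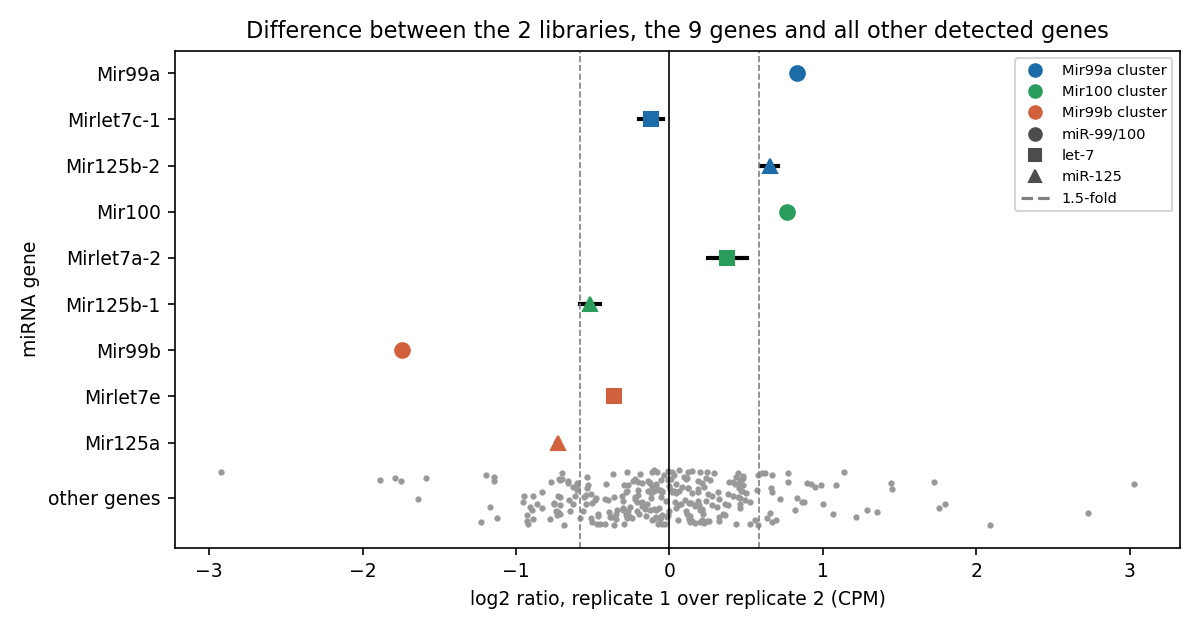
Log2 ratio of CPM, replicate 1 over replicate 2, for each of the 9 genes with its exact 95% interval (bars, often narrower than the symbol), above the other genes at 10 CPM or more in both libraries (grey, spread vertically for display). Dashed lines mark 1.5-fold, and Mir99b lies at -1.75.

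Hairpin base composition is set beside these differences as a description. The share of G and C in the hairpin was 67.1% in Mir99b, 62.4% in Mirlet7e and 60.3% in Mir125a, and 45.8 to 53.2% in the 6 genes of the other clusters. The 5p arms did not all follow this split. Their share was 63.6% in miR-99b-5p, but 50% in miR-125a-5p, as in miR-99a-5p, miR-100-5p and miR-125b-5p. It was 40.9% in both let-7e-5p and let-7c-5p, and 36.4% in let-7a-5p. The composition of the arms was not set against the ratios. Across the 302 genes at 10 CPM or more in both libraries, hairpin G and C and the log2 ratio had Spearman's rho = -0.31 and Pearson's r = -0.29, a correlation across genes that share the same 2 libraries. Split into 4 groups by G and C, the median log2 ratio was 0.18, 0.11, -0.02 and -0.33 from the lowest group to the highest. The 3 chromosome 17 genes were in the highest group, with Mir99b at -1.75. The group at -0.02 held Mir99a, at 0.83, and Mir125b-1, at -0.52. The group at 0.11 held the other 4 genes, at -0.12 to 0.77. Without the 9 genes, rho was -0.30 over 293 genes. The labels cite a different adapter trimming document for each library. The part of composition or trimming in the differences was not tested.

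**Figure D5:**
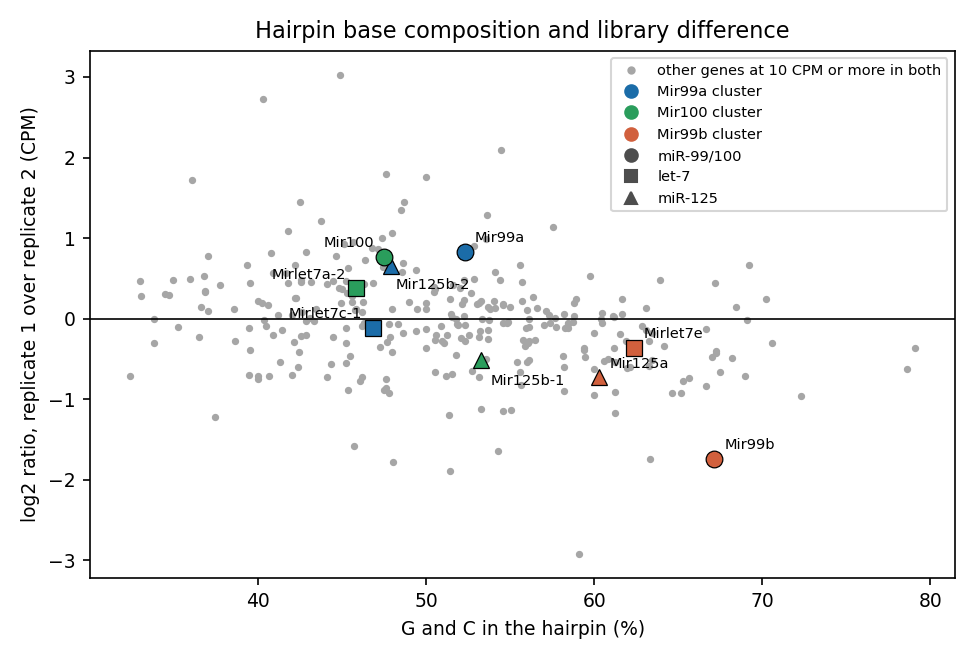
Share of G and C in the annotated hairpin in percent against the log2 ratio of CPM, replicate 1 over replicate 2, for genes at 10 CPM or more in both libraries. The 3 genes of the Mir99b cluster have 60.3 to 67.1% G and C and ratios of -0.36 to -1.75.

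The cells of the tissue were checked with miRNA marker lists. Detection means 10 CPM in each library. Of the 18 neuron-enriched genes, 15 were detected, and the list held 210110.1 CPM in replicate 1, against 188307 CPM in replicate 2, of which Mir139 alone held 156599 and 153300.1 CPM. The 3 Mir124a genes had at most 8 counts each. Reads placed more than once are left out of the list counts too. Copies of the arms of these list genes were not searched, so a low count does not show a low level. For choroid plexus and ependyma, 7 of 10 genes were detected, with 11470.4 CPM in all in replicate 1, against 3486 CPM in replicate 2. For oligodendrocytes 2 of 4 were detected (5817, against 8786 CPM), and for vascular cells 3 of 5 (8456, against 8769 CPM). For microglia and leukocytes 5 of the 7 genes in the tables were detected (8588, against 7869.8 CPM), and for erythroid cells 1 of 4 (20.0, against 25.4 CPM). Mir219b, Mir126b, Mir145b and Mir449b had 0 counts in both libraries. Of all genes with 10 counts or more over both libraries, 15.5% were over 1.5-fold higher in replicate 1 and 23.9% lower. In the choroid plexus list, 5 of 8 such genes were higher (Mir204, Mir34b, Mir34c, Mir1298 and Mir1264). There 1, Mir449a, was lower, at a log2 ratio of -0.66. In the oligodendrocyte list, 1 of 3 was over 1.5-fold lower, Mir219a-2 (-0.83), while Mir338 was at -0.10 and Mir219a-1 at 0.22. Higher by the same measure were 3 of 17 in the neuron list, 2 of 7 for microglia and leukocytes and 1 of 3 for vascular cells. These lists had 0 lower. In the erythroid list, 0 of 3 were higher and 1 was lower. The part of these lists in the differences of the 9 genes was not tested, and in tissue fewer cells of a type cannot be told from less RNA per cell.

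Relatives outside the clusters were counted in the same way. The 9 other let-7 genes, all detected, summed to 26.0% of counts in replicate 1 and 25.2% in replicate 2, so that the clusters held 9.64% and 12.3% of all let-7 counts. These are shares of reads placed once and not of let-7 as a whole. The arms let-7a-5p, let-7c-5p and let-7f-5p each stood in 2 annotated hairpins. Mirlet7a-1, Mirlet7c-2, Mirlet7f-1 and Mirlet7f-2 therefore also leave out any read placed more than once. Of the 9 other let-7 genes, 3 were over 1.5-fold higher in replicate 1 (Mirlet7d, Mirlet7f-1 and Mirlet7f-2) and 0 were over 1.5-fold lower, beside 15.5% and 23.9% of all genes. The miR-10 genes, whose seed is ACCCUGU, were low, with 11.5 and 19.0 CPM for Mir10a and 8.01 and 16.5 CPM for Mir10b in replicates 1 and 2. In counted reads, Mirlet7c-2, which shares let-7c-5p with Mirlet7c-1, stood at 1225 and 1347 CPM, above Mirlet7c-1 in both libraries. Mirlet7a-1, which shares let-7a-5p with Mirlet7a-2, stood at 413 and 297 CPM in counted reads, above Mirlet7a-2 in both. The 3p arms of Mirlet7c-2 and Mirlet7a-1 have the same sequence, while those of Mirlet7c-1 and Mirlet7a-2 each stood in 1 annotated hairpin. Since an unknown part of the reads of these genes was placed more than once, the counts do not rank their levels.

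For the highest gene of each cluster, the nearest other genes over the 2 libraries, by distance in log2(CPM + 1), were Mir770 (0.44) and Mir191 (0.48) for Mir99a, Mir128-1 (0.47) and Mir26b (0.47) for Mir100, and Mir744 (0.35) and Mir23b (0.62) for Mirlet7e. With 2 libraries this measures a like level and a like ratio.

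The let-7 hairpins were searched for GGAG, the letters that the RNA-binding protein LIN28 recognises in let-7 precursors. The search used the transcribed strand and counted overlapping matches. Of the 12 let-7 hairpins, members and others, 9 held GGAG, beside 37.2% of all 2202 annotated hairpins and 35.1% of those of 80 to 100 bases. The 3 let-7 hairpins of the clusters held it, and their sequences are shown with every GGAG in capitals.
Mirlet7c-1 hairpin: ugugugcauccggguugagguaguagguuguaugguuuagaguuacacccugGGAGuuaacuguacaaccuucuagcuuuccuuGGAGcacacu
Mirlet7a-2 hairpin: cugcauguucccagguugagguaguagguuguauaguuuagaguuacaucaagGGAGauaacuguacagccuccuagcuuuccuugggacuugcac
Mirlet7e hairpin: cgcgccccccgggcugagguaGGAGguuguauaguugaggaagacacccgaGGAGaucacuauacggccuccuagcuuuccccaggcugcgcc
In all 3 hairpins a GGAG ends 4 bases before the annotated 3p arm, which is the first match in Mirlet7c-1, the only match in Mirlet7a-2 and the last match in Mirlet7e. In Mirlet7e the first lies inside the 5p arm, across the base that U9G changes relative to let-7c-5p. Of the other 6 genes, Mir125b-1 and Mir125a held GGAG once each, and Mir99a, Mir100, Mir99b and Mir125b-2 had 0 matches. A match describes letters and not a bound site.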

How the data were processed

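Small RNA of 2 hippocampus libraries was sequenced by the submitters. They deposited raw read counts per miRNA gene, which the authors did not normalise, in 3 columns and with 4 summary rows. Per the file headers, reads were placed on mm10 with GENCODE M21. Aligner and counter are not given in the sources used. Column 2 was taken as unstranded counts, column 3 as counts on the gene's own strand and column 4 as opposite-strand counts, from genes that overlap on opposite strands (Mirlet7e and Gm25927). Each column summed to the same number of reads, so each read stood in 1 row. Column 3 was used. The summary rows, left out of CPM, held 15.1, 43.8 and 2.92% of reads as unaligned, placed more than once and outside miRNA genes in replicate 1, and 11.4, 45.7 and 3.005% in replicate 2.

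CPM, exact binomial intervals (Clopper-Pearson) and log2 ratios were computed. With 1 group there was nothing to test, so edgeR and DESeq2 served for scaling alternatives alone. Procedures were checked on simulated ratios with known answers, in counts drawn with counting error alone. That check does not cover variation between libraries beyond counting error. The genes and lists were chosen with earlier results of these data known. Named beyond the 9 genes were the let-7 and miR-10 relatives, genes that overlap a member, marker lists and the 2 nearest genes for the highest gene of each cluster. The list entry Mir142hg matched no row. Within-family shares, seed relatives, base composition and the 100 CPM background were added after the data were seen. Hairpins were matched in the M21 transcripts. Versions were Python 3.11.15, numpy 2.4.6, pandas 2.3.3, scipy 1.17.1, matplotlib 3.10.9, R 4.3.3, edgeR 4.0.16 and DESeq2 1.42.0.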

Additional observations from a re-analysis of the deposited data

How the results depend on the processing

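With all reads as denominator, the 9 genes held 3.41% of reads in place of 8.71%, and the Mir99a, Mir100 and Mir99b clusters stood at 6087, 2887 and 25136 reads in 1000000. Without the gene with the highest count in the denominator, the 9 genes held 10.3%. With counts taken without regard to strand, the 9 genes held 6.05% and the Mir99b cluster 35729 CPM, since Mirlet7e then has 0 counts and 8 genes are detected. On the opposite strand all 9 genes and the 3 clusters were at 0. At 2-fold in place of 1.5-fold, 1 gene in place of 5 was apart between the libraries. The count stayed at 5 under TMM, DESeq2 size factors, all reads as denominator, 1 count added and counts without regard to strand, and all members with a value kept the sign of their ratio. TMM and DESeq2 scaling moved every ratio by about 0.07 and 0.08 on the log2 scale, which took the sum of the Mir99b cluster from -0.65 to -0.58 and under 1.5-fold. The sum of the Mir100 cluster, at 0.60, fell under 1.5-fold with all reads as denominator (0.54) and with counts taken without regard to strand (0.58). Leaving out 1 library, the 9 genes held 7.85 to 9.57%. Without a minimum, 51.9% of 799 genes with a count were over 1.5-fold apart. No paired analysis was possible because the study has 1 group. Reads placed more than once, in no gene's count, limit the levels of Mirlet7c-1, Mirlet7a-2, Mir125b-1 and Mir125b-2.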

Other observations

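A few further genes carry the seeds of the clusters. Mir351, an X-chromosome gene whose miR-351-5p has the miR-125 seed CCCUGAG, had 937 counts in replicate 1 and 866 in replicate 2, or 221 and 172 CPM. Mir6394 and Mir6367, with the same seed, and Mir1961, with the let-7 seed GAGGUAG, had 0 counts in both libraries. Mir7k, the gene of let-7k, had 16 and 14 counts. The genes named here were found by their seeds after the data were seen.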
